A study of Mus musculus with 14 samples.

Results

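The comparison of H3f3a knockout (KO) with wild-type (WT) neurospheres rests on 6 of the 14 libraries of the study, 3 from KO lines and 3 from WT lines, taken by the cell type and genotype in their labels. Neurospheres are floating cultures of neural stem and precursor cells, started here from the heads of mouse embryos at embryonic day 13.5. The KO lines carry the targeted H3f3a allele that the series title calls knockout-first, the WT lines do not, and all 6 lines had no treatment. No source used here gives the strain, the sex, the number of targeted alleles or the place of the cassette. The design text calls the lines independent, and each gave 1 library. The p-values therefore measure the spread between lines, and whether lines came from separate litters was not stated. Levels are given as CPM, the counts of transcript 3′ ends scaled by TMM factors to 1000000 counts per library. Libraries held from 1669406 (KO line 2) to 2874677 (WT line 3) counts assigned to genes.

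H3.3 is the histone H3 variant that is placed into chromatin throughout the cell cycle, by the HIRA complex at active genes and by ATRX and DAXX at heterochromatin and telomeres. H3f3a and H3f3b encode the same protein from different DNA. Their mRNAs end in a poly(A) tail and can be counted by a 3′ end assay, unlike most mRNAs of the replication-dependent histone genes, which end in a stem-loop. H3.3 serves cycling precursors as well as cells that have stopped dividing, such as neurons.

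The coding parts of both H3.3 genes are shown because the comparison turns on telling their transcripts apart. They come from the GRCm38 transcripts H3f3a-205 (minus strand of chromosome 1, coding bases between 180803077 and 180811926) and H3f3b-201 (minus strand of chromosome 11, between 116023407 and 116024009), each with 4 exons. Coding bases 1 to 300 are printed, and capitals mark the 72 of them at which the genes differ.
H3f3a: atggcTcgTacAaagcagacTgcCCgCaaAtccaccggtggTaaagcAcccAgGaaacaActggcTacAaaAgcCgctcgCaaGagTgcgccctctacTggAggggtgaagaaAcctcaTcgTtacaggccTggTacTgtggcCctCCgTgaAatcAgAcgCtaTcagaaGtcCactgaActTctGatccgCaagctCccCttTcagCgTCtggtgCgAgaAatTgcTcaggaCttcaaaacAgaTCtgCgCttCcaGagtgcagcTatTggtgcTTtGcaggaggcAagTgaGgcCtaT
H3f3b: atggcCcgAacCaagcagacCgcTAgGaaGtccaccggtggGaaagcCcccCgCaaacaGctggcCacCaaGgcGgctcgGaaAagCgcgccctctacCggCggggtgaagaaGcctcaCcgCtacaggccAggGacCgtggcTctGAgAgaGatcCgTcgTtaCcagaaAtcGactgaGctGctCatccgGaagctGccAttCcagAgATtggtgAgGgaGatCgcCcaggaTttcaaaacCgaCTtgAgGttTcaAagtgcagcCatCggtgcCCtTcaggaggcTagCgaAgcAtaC
Over the whole coding part of 411 bases the genes differ at 95, an identity of 76.9%. Of these, 14 lie at the first, 0 at the second and 81 at the last position of a codon. The whole transcripts share 0 stretches of 31 bases, and so do their last 500 bases, the end from which the libraries were made.

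H3f3a was the 1 gene that changed by the test. It stood at 2423, 2144 and 2024 CPM in WT lines 1 to 3 and at 59.4, 73.5 and 27.5 CPM in KO lines 1 to 3. All 3 KO lines lay far below all 3 WT lines, and 2.43% of the WT mean was left. The log2 difference was -5.37 (SE 0.41, edgeR quasi-likelihood test, adjusted p = 0.00754). An exact two-sided permutation test over lines gave p = 0.1, which is as low as 3 lines a group allow. The KO values rest on 143, 118 and 75 counts, so the remaining signal was above 0 in each KO line. The edgeR call ended without WT line 2 (log2 -5.38, adjusted p = 0.0801) or without KO line 1 (log2 -5.46, adjusted p = 0.202).

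H3f3b, the paralog, stood at 2370, 1769 and 1755 CPM in WT and at 2453, 2074 and 2110 CPM in KO lines. The groups overlapped, and the difference was within the spread between lines (log2 0.17, SE 0.24, edgeR adjusted p = 0.999, exact permutation p = 0.3). Both genes together came to 4793, 3914 and 3780 CPM in WT and to 2512, 2148 and 2138 CPM in KO lines. All KO sums lay below all WT sums, at 54.4% of the WT mean (exact two-sided permutation p = 0.1). H3f3a gave 50.6%, 54.8% and 53.6% of the sum in WT lines and 2.37%, 3.42% and 1.29% in KO lines. H3.3 protein was not measured.

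**Figure D1:**
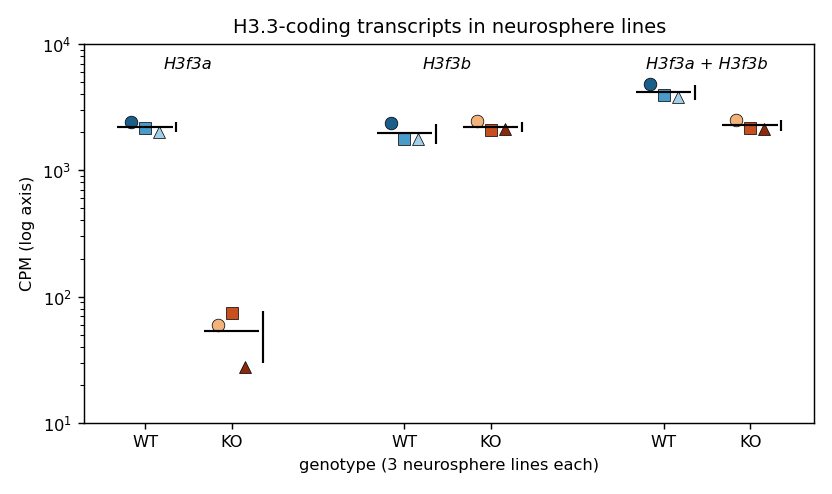
CPM on a log axis of H3f3a, H3f3b and their sum in 3 WT (blue) and 3 KO (orange to brown) neurosphere lines; circles, squares and triangles are lines 1, 2 and 3, horizontal bars the means and vertical bars the SD. H3f3a lies between 27.5 and 73.5 CPM in the KO lines against 2024 to 2423 CPM in the WT lines, while H3f3b overlaps between the genotypes.

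The lines expressed markers of neural stem cells and radial glia. Astrocyte markers summed to 6440 to 11559 CPM, in some lines mostly through the matrix protein gene Sparcl1, whose values are given below. Gfap, another astrocyte marker, stood at 22.6, 95.3 and 0 CPM in WT and at 18.3, 95.3 and 7.34 CPM in KO lines. Neuron markers summed to 1583 to 2122 CPM and oligodendrocyte lineage markers to 1316 to 2842 CPM. Of 16 stem cell and radial glia markers 15 passed the filter on low counts, and the 16 summed to 11494 to 16912 CPM in the WT and 13107 to 19062 CPM in KO lines. Fabp7, a fatty acid binding protein of radial glia, stood at 3223, 2321 and 1678 CPM in WT and at 2382, 4462 and 3075 CPM in KO lines. Sox2, a factor that keeps neural stem cells in that state, ran from 814 to 1256 CPM in WT lines and from 606 to 1333 CPM in KO lines. In both genes the groups overlapped. Macrophage and microglia markers summed to at most 2.91 CPM in any line, and 0 of 12 passed the filter. Red blood cell markers summed to at most 0.365 CPM. Of 15 fibroblast and mesenchyme markers 2 passed, and the 15 summed to 182, 77.9 and 68.3 CPM in WT and to 79.8, 46.1 and 71.2 CPM in KO lines. The highest sum was that of WT line 1, in which the collagen gene Col1a2 reached 21.5 CPM, against at most 2.56 CPM elsewhere.

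Brain region separated the lines in a way that crossed genotype. Otx2, a fore- and midbrain factor, stood at 62.2, 0 and 21.6 CPM in WT and at 29.9, 49.2 and 0.367 CPM in KO lines, with WT line 2 and KO line 3 lowest. Hox genes, which mark hindbrain and spinal cord, showed the reverse. Hoxb3 stood at 0, 70.2 and 0 CPM in WT and at 1.25, 1.87 and 46.6 CPM in KO lines, and Hoxa2 had counts in WT line 2 (19.7 CPM) and KO line 3 (18.0 CPM) only. Hoxa5 was also present in KO lines 1 and 2 (10.8, 66.6 and 129.9 CPM in KO lines, 0.384, 454 and 0 CPM in WT lines). Sex crossed genotype too, since the Y-linked gene Ddx3y stood at 134, 0 and 0.731 CPM in WT and at 0, 1.25 and 134 CPM in KO lines.

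Cell cycle transcripts differed between lines of 1 genotype. The 32 G2 and M phase genes summed to 680.2, 1808 and 2328 CPM in WT and to 967, 406 and 4079 CPM in KO lines, so that KO lines were both the lowest and the highest. Mki67, expressed in dividing cells, stood at 53.7, 155 and 174 CPM in WT and at 76.5, 6.23 and 298 CPM in KO lines. KO line 2 was low and KO line 3 high in it. The 28 S phase genes summed to 380.0, 694 and 971 CPM in WT and to 468, 385 and 1843 CPM in KO lines. In bulk RNA, fewer cells of a type and less RNA per cell cannot be told apart.

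**Figure D2:**
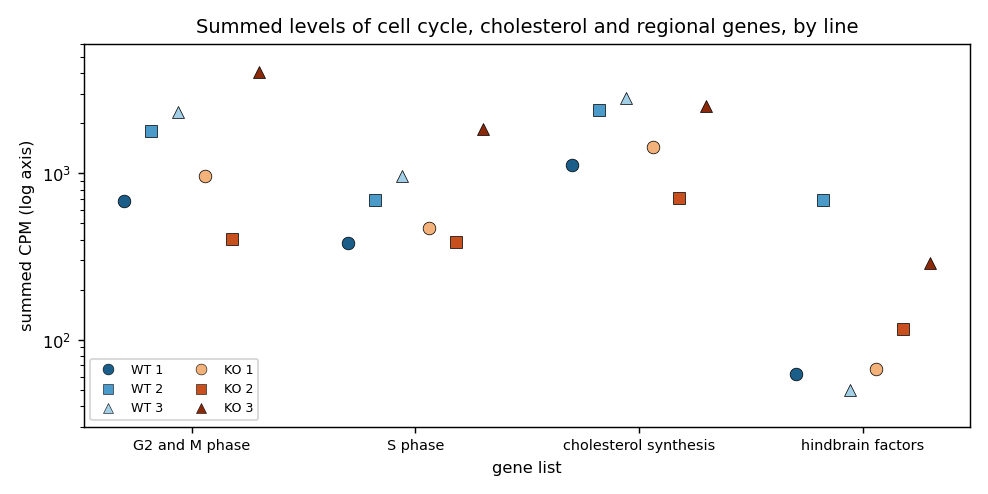
Summed CPM on a log axis of 4 gene lists in each neurosphere line; circles, squares and triangles are lines 1, 2 and 3 of WT (blue) and KO (orange to brown). G2 and M phase sums run from 406 CPM in KO line 2 to 4079 CPM in KO line 3, and hindbrain factors are highest in WT line 2 and KO line 3.

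Whole chromosomes stood apart in some KO lines. For each line the log2 difference from the mean of the WT lines (for a WT line, from the other WT lines) was taken for each gene whose mean was 10 CPM or more. Its median over the genes of a chromosome was centred on the line's median chromosome. KO line 2 was higher on chromosome 8 by a median of 0.83 on the log2 scale (1.78-fold, 471 genes), with 91.9% of these genes above the WT mean. The same line was higher on chromosome 1 (median 0.53, 1.44-fold), chromosome 3 (0.49, 1.41-fold), chromosome 10 (0.49, 1.40-fold) and chromosome 15 (0.44, 1.35-fold). KO line 1 was higher on chromosome 10 (median 0.48, 1.40-fold), where 91.5% of 461 genes lay above the WT mean. KO line 3 reached 0.21 on chromosome 1 and 0.18 on chromosome 2, and KO line 1 reached 0.10 on chromosome 1.

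These differences ran along the chromosomes. When each chromosome was divided into 3 parts of equal length, the medians of KO line 2 were 0.84, 0.77 and 0.89 along chromosome 8. They were 0.54, 0.51 and 0.54 along chromosome 1 and 0.57, 0.47 and 0.55 along chromosome 3. Along chromosome 10 they were 0.60, 0.50 and 0.42 in KO line 2 and 0.63, 0.44 and 0.47 in KO line 1. The WT lines stayed between -0.11 and 0.09 on all chromosomes but 18, where WT line 1 stood at 0.18 and WT line 3 at -0.31. Each WT line was set against the other WT lines, so these values depend on each other. Along chromosome 18 the medians of WT line 3 were -0.20, -0.55 and 0.02, so its difference did not run along the whole chromosome. In the 8 MEF lines, embryonic fibroblasts from the rest of the body, medians stayed between -0.10 and 0.07 on all chromosomes. DNA copy number was not analysed here, and its part in these differences was not tested.

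**Figure D3:**
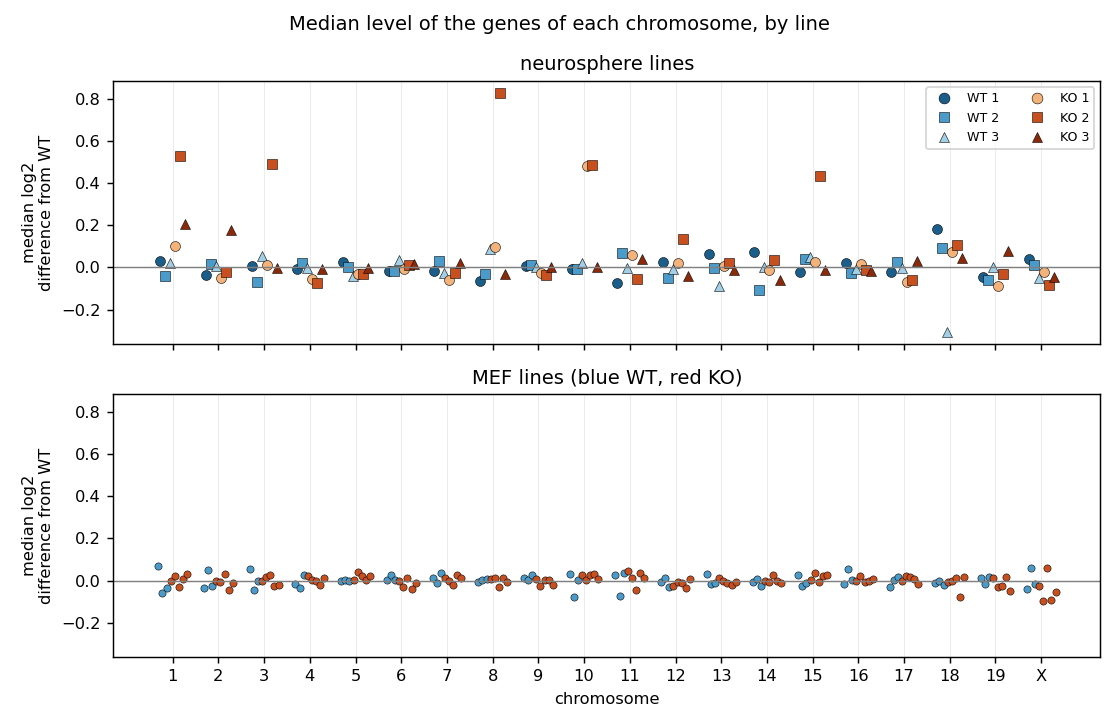
Median log2 difference from the WT lines over the genes of each chromosome (x axis), one symbol per line; the upper panel shows the 6 neurosphere lines (WT blue, KO orange to brown) and the lower panel the 8 MEF lines. KO line 2 reaches 0.83 on chromosome 8 and 0.44 to 0.53 on chromosomes 1, 3, 10 and 15, and KO line 1 reaches 0.48 on chromosome 10, while the MEF lines stay within -0.10 to 0.07.

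The chromosome differences also stood in the comparison of genotypes. In the fit of 3 KO against 3 WT lines, 449 of 547 tested genes of chromosome 10 had a positive log2 difference (82.1%, median 0.28). So did 456 of 572 on chromosome 8 (79.7%, median 0.27) and 469 of 618 on chromosome 1 (75.9%, median 0.24). Over all genes 51.3% were positive, with a median of 0.01. Without KO line 2 the share of positive genes was 52.0% on chromosome 8 (median 0.01) and 66.3% on chromosome 1 (median 0.13), and on chromosome 10 it was 77.6% (median 0.23). In MEFs the chromosome medians of KO against WT ran from -0.04 to 0.03.

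By edgeR 1 of 10624 tested genes passed at an adjusted p under 0.05 (0.00941%), and that gene was H3f3a. At an unadjusted p under 0.05 there were 227 genes (2.14%), of which 124 had higher values in KO (1.17%) and 103 lower values (0.97%), against 531 expected if no gene differed. Without KO line 3 there were 668 such genes. In 756 genes (7.12%) the genotypes had no overlap between lines, 381 with KO higher (3.59%) and 375 with KO lower (3.53%). In MEFs 1 of 10785 genes passed (0.00927%).

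Chromosomes 1, 3, 8, 10 and 15, picked after their values were seen, hold 25.0% of the tested genes. They hold 78 of the 124 genes with higher values (62.9%) and 14 of the 103 with lower values. Once each line's chromosome medians were removed in the fit, also a choice made after seeing the data, the counts were 76 higher, 22 of them on these chromosomes, and 131 lower. H3f3a was then again the 1 gene called.

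The genes with the smallest p are given as values, since none but H3f3a passed. Their edgeR adjusted p was 0.999 unless another is given. Picking by small p favours genes whose lines do not overlap, as in 7.12% of all genes. Nrn1 encodes neuritin, a small membrane-anchored protein that promotes neurite growth, and stood at 1.92, 0.962 and 0 CPM in WT and at 27.8, 34.2 and 28.6 CPM in KO lines. Its KO lines were close together and far above the WT lines (log2 4.92, SE 0.67, edgeR adjusted p = 0.317). Nrn1 was called with no filter on low counts (edgeR adjusted p = 0.00613) and by DESeq2 (adjusted p = 1.90e-08). In MEFs its log2 difference was -1.04, and the test of the difference between the cell types did not pass over all genes (edgeR, unadjusted p = 0.00484).

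Adora1, the adenosine A1 receptor, which dampens transmitter release, stood at 29.2, 21.7 and 26.7 CPM in WT and at 42.4, 60.4 and 69.4 CPM in KO lines (log2 1.15, SE 0.28). Cd38, an enzyme that breaks down NAD, stood at 1.54, 1.44 and 4.75 CPM in WT and at 7.48, 50.4 and 23.5 CPM in KO lines (log2 3.32, SE 0.79), and DESeq2 called it (adjusted p = 0.0282). Tex2 stood at 14.2, 14.9 and 15.7 CPM in WT and at 25.4, 36.1 and 39.3 CPM in KO lines (log2 1.16, SE 0.29). In each of these genes the groups did not overlap, although the KO lines spread widely in Cd38. Ust, a sulfotransferase that modifies chondroitin and dermatan sulfate, stood at 16.1, 19.7 and 17.5 CPM in WT and at 36.6, 37.4 and 30.1 CPM in KO lines (log2 0.96, SE 0.26). Cep290, a protein at the base of cilia, stood at 33.8, 37.5 and 38.4 CPM in WT and at 71.5, 62.9 and 56.2 CPM in KO lines (log2 0.80, SE 0.23).

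Of the 12 genes with the smallest p among those higher in KO, Samd5, Ust and Cep290 lie on chromosome 10, Adora1 and Cavin2 on chromosome 1 and the potassium channel gene Kcnk1 on chromosome 8. With each line's chromosome medians removed, the log2 difference was 0.64 for Ust, 0.47 for Cep290 and 0.87 for Adora1. It was 2.14 for Samd5, 2.21 for Cavin2, a coat protein of caveolae, and 2.53 for Kcnk1. These last 3 genes were low, at most 17.4 CPM (Samd5), 12.5 CPM (Cavin2) and 16.8 CPM (Kcnk1) in any line. Meig1 (1.44 to 2.69 CPM in WT, 4.04 to 16.8 CPM in KO lines) and Zfp951 (1.46 to 3.84 and 6.97 to 14.3 CPM) were low as well.

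Prrt2, which encodes a presynaptic protein of the vesicle release machinery, had 0 counts in the WT lines and 4.99, 9.34 and 4.404 CPM in KO lines. With 3 counts in the whole WT group as the floor its KO mean was at least 15.4-fold higher, and DESeq2 called it (adjusted p = 0.0282). Its 39 counts over the 6 lines all came from KO lines, through which alone it passed the filter on low counts. Gm42742, which overlaps Prrt2 on the same strand of chromosome 7, went the other way, with 23.0, 10.1 and 2.92 CPM in WT lines and 0 counts in the KO lines. With the same floor the KO group was at least 26.99-fold below the WT mean, with WT line 3 far below that mean. Gm42742 did not pass the filter on low counts and was not tested. Its annotated 3′ end lies 18 bases from that of Pagr1a on the same strand, and 2480 bases from that of Prrt2. Pagr1a stood at 19.2, 27.9 and 16.8 CPM in WT and at 19.5, 16.2 and 20.2 CPM in KO lines, and the groups overlapped. Gm42742 and Pagr1a summed to 33.3 ± 11.96 CPM in the WT and 18.6 ± 2.15 CPM in KO lines (SD, n = 3; exact two-sided permutation p = 0.2). With Prrt2 added the sums were 33.3 ± 11.96 and 24.9 ± 0.561 CPM (SD, n = 3; exact two-sided permutation p = 0.4). How the counting divided reads among these 3 genes was not tested.

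Of the genes with lower values in KO lines, Fras1, an extracellular matrix protein of basement membranes, stood at 12.7, 31.8 and 97.5 CPM in WT and at 3.32, 0.623 and 3.67 CPM in KO lines (log2 -4.11, SE 0.89). The KO lines lay below every WT line, and DESeq2 called the gene (adjusted p = 0.000389). Vcan, the chondroitin sulfate proteoglycan versican, stood at 253, 264 and 235 CPM in WT and at 154, 78.4 and 65.3 CPM in KO lines (log2 -1.34, SE 0.33). Its WT lines were close together and its KO lines spread. Sdk1, a synaptic adhesion protein, stood at 6.91, 6.25 and 4.38 CPM in WT and at 1.25, 1.25 and 0.734 CPM in KO lines (log2 -2.41, SE 0.60). Ptprd, a receptor phosphatase that organises synapses, stood at 63.3, 63.5 and 110.0 CPM in WT and at 12.5, 2.49 and 25.7 CPM in KO lines (log2 -2.49, SE 0.66), and DESeq2 called it (adjusted p = 0.0473).

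Pdcd4, an inhibitor of translation initiation, stood at 309, 273 and 333 CPM in WT and at 179, 108 and 142 CPM in KO lines (log2 -1.09, SE 0.24). Scn7a, an atypical member of the sodium channel family, stood at 21.9, 17.8 and 7.67 CPM in WT and at 2.49, 3.11 and 3.303 CPM in KO lines (log2 -2.39, SE 0.51). Fbxl7, the substrate arm of a ubiquitin ligase, stood at 8.44, 9.14 and 18.998 CPM in WT and at 0.831, 1.87 and 2.57 CPM in KO lines (log2 -2.76, SE 0.59). In all 3 genes each KO line lay below each WT line. Tusc1 (4.22 to 17.8 CPM in WT, 0 to 1.101 CPM in KO lines), Irs4, an adaptor of insulin receptor signalling (4.38 to 14.9 and 0 to 1.87 CPM), and St3gal6, a sialyltransferase (5.76 to 15.7 and 0.734 to 2.49 CPM), were low throughout. Of the 12 genes lower in KO, Fbxl7 on chromosome 15 was the 1 gene on the 5 chromosomes named above.

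**Figure D4:**
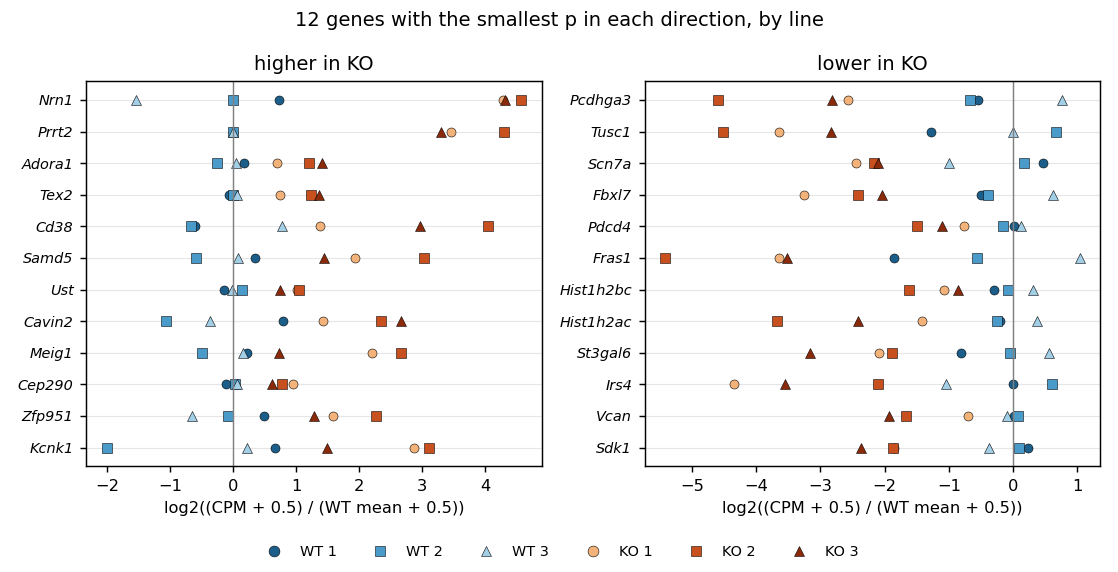
Level of the 12 genes with the smallest p in each direction in each line, as log2 of CPM plus 0.5 over the WT mean plus 0.5; left, higher in KO, right, lower in KO, with WT lines in blue and KO lines in orange to brown. In each of the 24 genes the 3 KO lines lie on one side of the 3 WT lines, and 0 of the 24 passed the edgeR test. Picking by small p in this same comparison favours such separation, which 7.12% of all genes had.

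The Pcdhga3 values have to be read with its gene cluster. This protocadherin, a cell surface protein by which neurons tell themselves from others, stood at 28.4, 26.0 and 71.2 CPM in WT and at 6.65, 1.25 and 5.51 CPM in KO lines (log2 -3.16, SE 0.61), and DESeq2 called it (adjusted p = 0.000804). It shares its 3′ end with Pcdhgc4 and other genes of the gamma cluster. The 22 Pcdhg genes summed to 1801 ± 276 CPM in the WT and 1791 ± 457 CPM in KO lines (SD, n = 3; exact two-sided permutation p = 0.8). Of 22 clustered protocadherins tested, 13 had positive values and the median was 0.13. Pcdhb7, of the beta cluster, stood at 6.91, 1.92 and 5.48 CPM in WT and at 14.1, 61.6 and 9.18 CPM in KO lines (log2 2.51, SE 0.82), with KO line 2 far above the others.

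Several histone genes besides H3f3a had lower values in KO lines. For replication-dependent genes these values cover the transcripts with a poly(A) tail, not those that end in a stem-loop. Hist1h2bc, an H2B gene, stood at 165, 192 and 249.9 CPM in WT and at 95.2, 65.4 and 112 CPM in KO lines (log2 -1.15, SE 0.27). Hist1h2ac, an H2A gene beside it, stood at 18.8, 18.3 and 28.5 CPM in WT and at 7.90, 1.25 and 3.67 CPM in KO lines (log2 -2.30, SE 0.55). Both genes were lower in each KO line than in any WT line. Hist1h1c, a linker histone, stood at 448, 379.6 and 469 CPM in WT and at 325, 239 and 188 CPM in KO lines (log2 -0.79, SE 0.26). Hist1h3d, an H3 gene, stood at 14.97, 9.62 and 25.6 CPM in WT and at 4.99, 4.98 and 6.61 CPM in KO lines (log2 -1.59, SE 0.45). Hist3h2a, another H2A gene, stood at 105, 93.8 and 83.3 CPM in WT and at 61.9, 45.4 and 74.1 CPM in KO lines (log2 -0.63, SE 0.25). None of the 5 passed over all genes. In all 5 the groups did not overlap, which their choice by small p favours.

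Of the 28 tested histone genes other than H3f3a and H3f3b, 7 had lower values at an unadjusted p under 0.05 (25%, beside 0.97% of all genes) and 0 had higher values. They were the 5 above with Hist1h4i (log2 -1.45) and Hist2h3c1 (-1.14). In 7 of the 28 every KO line lay below every WT line (25%, beside 3.53% of all genes). In 1 every KO line lay above, as in 3.59% of all genes. The median over the 28 was -0.08, with 18 negative, beside 0.01 over all genes. Other replication-dependent genes went with the line. Hist1h2ap stood at 23.4, 13.0 and 74.5 CPM in WT and at 21.2, 8.09 and 471 CPM in KO lines, and Hist1h1b at 3.45, 17.3 and 11.3 and 3.32, 0 and 30.1 CPM. In both, KO line 2 was lowest and KO line 3 highest, as in the G2 and M phase sums; the lines between them had another order. Of the replacement variants, H2afz stood at 346, 516 and 819 CPM in WT and at 355, 331 and 977 CPM in KO lines, and H2afv at 235 to 278 and 227 to 259 CPM. With H3f3a and H3f3b included, the median of the histone genes was -0.81 without KO line 3 and -0.01 without KO line 2. With the G2 and M phase mean as a covariate, added after the data were seen, the log2 difference was -1.05 for Hist1h2bc, -2.21 for Hist1h2ac, -0.83 for Hist1h1c, -1.52 for Hist1h3d and -0.61 for Hist3h2a. The median of the histone genes was then -0.19.

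**Figure D5:**
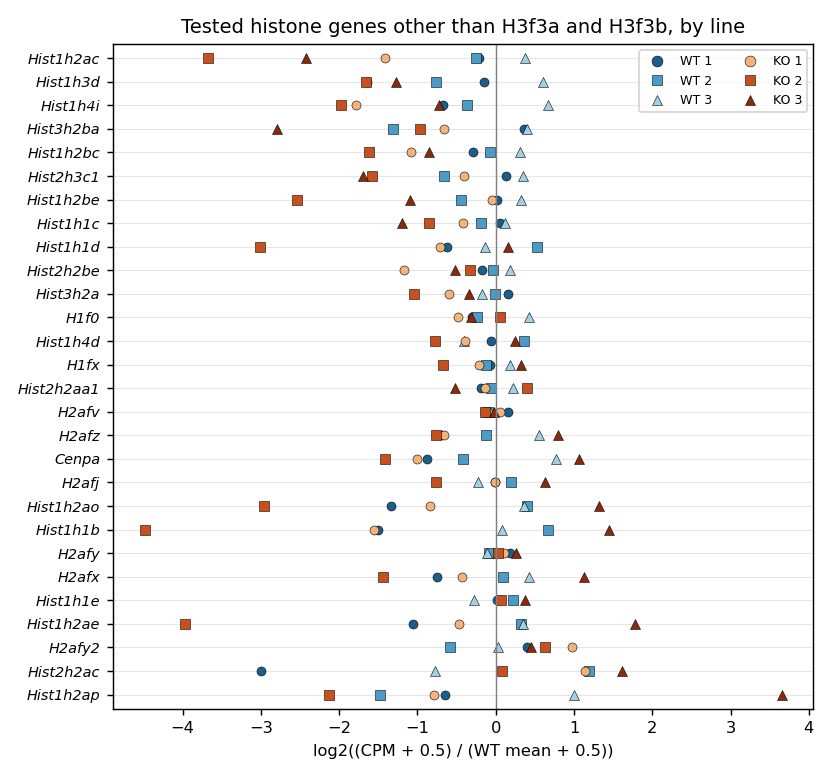
Level of the 28 tested histone genes other than H3f3a and H3f3b in each line, as log2 of CPM plus 0.5 over the WT mean plus 0.5, ordered by the KO minus WT difference; WT lines in blue, KO lines in orange to brown. The top rows show all KO lines left of the WT lines in Hist1h2ac and Hist1h3d, while in Hist1h2ap and Hist1h2ae KO line 3 lies far to the right and KO line 2 to the left.

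Hist1h2ac and Hist1h2bc start back to back on chromosome 13, at 23683948 on the minus strand and 23684199 on the plus strand, with 250 bases between the start sites. The promoter window of Hist1h2ac is shown because it covers most of the stretch between the pair and the first 11 bases of Hist1h2bc, and that of Hist3h2a because its gene also had lower values. Both are the 250 bases before the RefSeq start site on the gene's strand (GRCm38.p6, chr13:23683960-23684209 minus and chr11:58954435-58954684 plus). Capitals mark matches to CCAAT, to the histone octamer ATTTGCAT and to TATAAA on either strand.
Hist1h2ac: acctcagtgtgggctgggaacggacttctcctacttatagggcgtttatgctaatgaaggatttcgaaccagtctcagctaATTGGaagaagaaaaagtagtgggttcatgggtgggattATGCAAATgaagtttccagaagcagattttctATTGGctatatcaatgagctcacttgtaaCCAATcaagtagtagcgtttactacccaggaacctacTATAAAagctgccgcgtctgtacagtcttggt
Hist3h2a: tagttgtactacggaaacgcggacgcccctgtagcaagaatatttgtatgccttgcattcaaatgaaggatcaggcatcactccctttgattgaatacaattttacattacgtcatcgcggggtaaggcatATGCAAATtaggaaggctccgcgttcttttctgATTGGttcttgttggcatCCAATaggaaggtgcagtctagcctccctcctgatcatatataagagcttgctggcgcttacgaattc
The Hist1h2ac window holds 3 CCAAT matches, 1 octamer and 1 TATAAA, and the Hist3h2a window 2 CCAAT matches and 1 octamer. The windows of Hist1h1c and Hist1h3d hold 1 and 3 CCAAT matches and 0 octamers. Of 27025 RefSeq promoter windows of this length 34.5% hold CCAAT, 1.61% the octamer and 13% TATAAA. A match describes the letters and does not show a bound factor.

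Genes that place H3.3 had small differences. Of 7 H3.3 chaperone genes 3 had positive and 4 negative values (median -0.01), and the lines overlapped in all 7, beside 7.12% of all genes without overlap. Hira, the scaffold of the complex that places H3.3 at active genes, stood at 31.1, 35.6 and 31.1 CPM in WT and at 34.1, 26.8 and 35.6 CPM in KO lines. Atrx, the remodeller that places it at heterochromatin, stood at 845, 798 and 703 CPM in WT and at 697, 830.5 and 673 CPM in KO lines, and its partner Daxx at 16.8 to 29.2 and 22.0 to 25.7 CPM. Of 12 tested replication-coupled and general H3 chaperones 9 were positive (median 0.11, and -0.22 without KO line 3).

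Among the enzymes of histone methylation, Ezh2, the polycomb enzyme for H3K27, stood at 171, 162 and 152 CPM in WT and at 135, 112 and 203 CPM in KO lines. The H3K27 list had 6 of 10 positive values (median 0.03), the H3K4 list 12 of 16 (0.05), the H3K9 and heterochromatin list 4 of 12 (-0.07) and the DNA methylation list 7 of 10 (0.08). The H3K27 median ran from -0.09 to -0.06 without any 1 WT line or without KO line 3. In these 4 lists the KO and WT lines overlapped in each tested member, as they did in all but 7.12% of all genes. In the H3K36 list 5 of 8 were negative (median -0.16). Nsd1, a methyltransferase for this residue, stood at 144, 113 and 126 CPM in WT and at 83.5, 97.1 and 80.7 CPM in KO lines (log2 -0.55, SE 0.21). The demethylase gene Kdm4a likewise had every KO line (96.8 to 133 CPM) below every WT line (142 to 148 CPM). These were 2 of the 8 genes tested, beside 3.53% of all genes.

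The neighbours of H3f3a were examined because a targeted allele can bring its own chromosome segment along. Within 5 Mb of H3f3a 51 genes were tested, of which 40 had positive values (median log2 0.22). On the rest of chromosome 1, 429 of 566 genes were positive (75.8%, median 0.26), close to the neighbours' share. By line the median of the neighbours was 0.05, 0.55 and 0.29 in KO lines 1 to 3, beside 0.11, 0.53 and 0.21 for the rest of the chromosome. With each line's chromosome medians removed the median of the neighbours was -0.05. In MEFs 28 of 52 were positive (median 0.03). Aida stood at 48.7, 56.3 and 50.1 CPM in WT and at 66.5, 77.8 and 106 CPM in KO lines (log2 0.69, SE 0.25), with a difference of 0.42 once the chromosome medians were removed. Mark1, a kinase of microtubule-associated proteins, stood at 13.8, 20.2 and 17.2 CPM in WT and at 19.1, 43.0 and 30.8 CPM in KO lines (log2 0.85, SE 0.36), where KO line 1 lay among the WT lines.

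Markers of neural cell types did not move one way. The stem cell markers had 12 of 15 positive values (median 0.11), the neuron markers 5 of 10 (0.02), the oligodendrocyte lineage 4 of 8 (0.15) and the GABA lineage 2 of 6 (-0.41). The oligodendrocyte median was -0.62 without KO line 1. Of 11 tested astrocyte markers 7 were positive (median 0.02, and 0.83 without WT line 2). Their list of 12 summed to 11559, 10436 and 10551 CPM in WT and to 9715, 7030 and 6440 CPM in KO lines, with each KO line lower (exact two-sided permutation p = 0.1). Its member Sparcl1, a secreted matrix protein of glia, stood at 8252, 2879 and 8954 CPM in WT and at 5773, 1338 and 2302 CPM in KO lines, where the groups overlapped. The mean of Sparcl1 fell by more CPM than the mean of the whole sum. The other members together were thus not lower in KO lines on average.

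The 6 genes given next were grouped after their values were seen. In each, KO lines 1 and 2 lay above every WT line and KO line 3 did not. They are examples, since Pcdhb9, Pcdhb10, Pcdhb11 and Kcnk2 had this order as well. The share of all genes with this order was not counted. Gpr37l1, a receptor of astrocytes, stood at 13.1, 44.7 and 9.86 CPM in WT and at 171, 251 and 8.44 CPM in KO lines (log2 2.68, SE 1.16). Pcdh15, a protocadherin best known from the hair cells of the ear, stood at 6.91, 22.1 and 10.2 CPM in WT and at 152, 291 and 3.67 CPM in KO lines (log2 3.51, SE 1.30). Gpr37l1 lies on chromosome 1 and Pcdh15 on chromosome 10, and with the chromosome medians removed in the fit of all 6 lines their differences were 2.33 and 3.04.

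The neural factor gene Sox1 had the same order, at 79.1, 39.0 and 66.9 CPM in WT and at 179.9, 365 and 48.1 CPM in KO lines (log2 1.67, SE 0.68). So had the neuronal RNA-binding protein gene Elavl4, at 32.2, 13.5 and 78.2 and 114, 226 and 69.7 CPM (log2 1.71, SE 0.69). The gap junction gene Gja1 (108, 37.5 and 114 and 207, 279.5 and 109 CPM) and the cystine transporter gene Slc7a11 (46.8, 11.5 and 24.1 and 104, 276 and 31.9 CPM) also had KO lines 1 and 2 above every WT line and KO line 3 among them. The log2 difference was 2.30 for Slc7a11 and 1.19 for Gja1. For Gja1 it was 0.81 with the chromosome medians removed. KO line 3 had the highest Hoxb3, Ddx3y and cell cycle values of the KO lines. With the G2 and M phase mean as a covariate the log2 difference was 1.46 for Gpr37l1, 1.91 for Pcdh15, 0.91 for Sox1, 1.36 for Elavl4, 0.93 for Gja1 and 1.504 for Slc7a11. With Ddx3y as a covariate, likewise a later addition, the values were 1.97 for Gpr37l1, 2.65 for Pcdh15 and 1.42 for Sox1. They were 1.63 for Elavl4, 1.13 for Gja1 and 2.21 for Slc7a11. The part of brain region in these values was not tested.

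Among glutamate receptor subunits the AMPA receptor gene Gria4 stood at 119, 200.6 and 172 CPM in WT and at 80.2, 3.11 and 100.2 CPM in KO lines (log2 -1.40, SE 0.90). Each KO line lay below each WT line, with KO line 2 far below the others. Of 10 subunits tested 6 were negative (median -0.60), and the list summed to 557, 510.0 and 944 CPM in WT and to 453, 300.1 and 387 CPM in KO lines (exact two-sided permutation p = 0.1). The median was -0.04 without WT line 3, which had the highest sum. Of 14 tested neurite and synapse genes 8 were positive (median 0.08, and -0.15 without KO line 3). Besides Nrn1 and Prrt2 the adhesion gene Nrcam had all KO lines above all WT lines, at 175, 74.6 and 132 CPM in WT and at 183, 236 and 185 CPM in KO lines (log2 0.66, SE 0.32). In Nrcam the gap between WT line 1 and KO line 1 was narrow. These were 3 of the 14 genes, beside 3.59% of all genes, in a list written with earlier results known.

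Of the basement membrane genes 9 of 15 were negative (median -0.18), but without WT line 2 the median was 0.11. In 2 of the 15 every KO line lay below every WT line, beside 3.53% of all genes. These were Fras1 and Agrn, the heparan sulfate proteoglycan agrin. Agrn stood at 220.3, 174 and 175 CPM in WT and at 123, 140.1 and 86.6 CPM in KO lines (log2 -0.70, SE 0.25). Of the brain matrix genes 6 of 10 were negative (median -0.12). Here too 2 genes had every KO line below every WT line, Vcan and Bcan, the brain proteoglycan brevican (2 of 10, beside 3.53% of all genes). Bcan stood at 752, 773 and 758 CPM in WT and at 659, 489 and 501 CPM in KO lines (log2 -0.47, SE 0.22). Fbn1, the microfibril protein fibrillin, stood at 18.04, 11.5 and 10.6 CPM in WT and at 7.06, 4.98 and 6.24 CPM in KO lines (log2 -1.12, SE 0.40). Of the 2 endothelial markers tested, Pecam1 stood at 5.76, 13.0 and 9.13 CPM in WT and at 4.16, 2.49 and 2.57 CPM in KO lines (log2 -1.56, SE 0.51). Flt1 had a positive value, with 1.92 to 4.22 CPM in the WT and 2.08 to 26.1 CPM in KO lines (log2 1.98), so the 2 markers went in opposite directions.

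Metabolic and cell cycle lists moved with the lines. Of 24 tested cholesterol synthesis genes 22 were negative (median log2 -0.36), and the list summed to 1116, 2417 and 2830 CPM in WT and to 1442, 709 and 2531 CPM in KO lines. The KO and WT lines overlapped in all but Acat2 (25.7 to 32.5 CPM in the WT and 8.09 to 25.7 CPM in KO lines, -0.81). The median was -0.07 without KO line 2 and -1.04 without KO line 3. KO line 2 had the lowest sum of this list and of the G2 and M phase genes. With the G2 and M phase mean as a covariate, added after the data were seen, the median was -0.19. The S phase genes had 23 of 26 positive values (median 0.36), and a median of -0.74 without KO line 3. Of 18 tested glycolysis and hypoxia genes 12 were negative (median -0.23).

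Signalling lists had small medians. Notch pathway genes had 11 of 15 positive values (median 0.11), EGF and FGF receptor and feedback genes 10 of 17 (0.14) and Wnt targets and antagonists 6 of 10 (0.05). Hedgehog pathway genes had 5 of 8 (0.10), among which the coreceptor gene Cdon stood at 31.9, 21.7 and 82.9 CPM in WT and at 20.8, 13.7 and 15.4 CPM in KO lines (log2 -1.45, SE 0.50). WT line 3 was the highest, and without it the difference was -0.69. Without KO line 2 the Hedgehog median was -0.09, and without KO line 3 the EGF and FGF median was -0.23. Of 20 tested p53 targets and CDK inhibitors 12 were positive (median 0.09). Gadd45a, a DNA damage response gene, stood at 23.0, 30.3 and 40.9 CPM in WT and at 44.5, 56.7 and 52.8 CPM in KO lines (log2 0.70, SE 0.28). Of 14 immediate early genes 8 were positive (median 0.21). Fos, a transcription factor gene switched on soon after stimulation, stood at 71.4, 145 and 147 CPM in WT and at 242, 369 and 154 CPM in KO lines (log2 1.07, SE 0.39). In Gadd45a and Fos the KO lines lay above the WT lines, for Fos narrowly in KO line 3.

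The remaining lists held no gene that passed. Interferon-stimulated genes had 8 of 9 positive values (median 0.14), where MEFs had 1 of 16 (median -0.92); the difference between the lists was not tested. Genes of the unfolded protein and amino acid response had 11 of 17 positive values (0.13), and imprinted genes 6 of 14 (-0.13). Among the imprinted genes the KO lines lay below the WT lines in Snrpn, at 21.1, 19.7 and 23.7 CPM in WT and at 12.5, 14.3 and 15.05 CPM in KO lines (log2 -0.63, SE 0.28), and in Sgce. These were 2 of 14 tested, beside 3.53% of all genes. Ribosomal protein genes had 58 of 77 positive values (median 0.10, and -0.13 without KO line 3). Their summed levels were 26699 to 34685 CPM in the WT and 28119 to 40850 CPM in KO lines. Mitochondrially encoded mRNAs had 9 of 13 (median 0.13), and their summed levels overlapped as well.

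Whether KO against WT differed between neurospheres and MEFs was tested by an interaction term in a fit of all 14 libraries. By edgeR 0 of 12113 genes passed, with 366 at an unadjusted p under 0.05 (3.02%), and DESeq2 called 3, Fras1, Gnai1 and Pcdha12. Fras1 had a log2 difference of 0.99 in MEFs beside -4.11 in neurospheres (interaction unadjusted p = 0.000156). Gnai1, an inhibitory G protein subunit, stood at 17.7, 23.1 and 28.1 CPM in WT and at 9.97, 8.72 and 15.05 CPM in KO neurospheres (log2 -1.01, SE 0.35), against a difference of 0.83 in MEFs (unadjusted p = 0.000217). Both genes thus had values of opposite sign in the 2 cell types, which picking by a small interaction p favours. Pcdha12 stood at 0, 0 and 0 CPM in WT and at 26.2, 0 and 22.0 CPM in KO neurospheres. Hdac7, a histone deacetylase, stood at 89.8, 94.8 and 102 CPM in WT and at 70.6, 69.1 and 61.7 CPM in KO neurospheres (log2 -0.51, SE 0.20), against 0.26 in MEFs (unadjusted p = 0.00159). For H3f3a the differences were -5.37 in neurospheres and -6.09 in MEFs, and the interaction did not pass (unadjusted p = 0.166).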

How the data were processed

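Transcript 3′ ends of 14 primary mouse lines were sequenced with a QuantSeq 3′ mRNA kit, per the labels' protocols. Per the submitters' processing notes Salmon 1.1.0 and edgeR were used; no source used here gives the transcript set, the build or the options. The authors deposited, for each library, expected counts by transcript and TPM, which is scaled for length and depth; TPM was not used. Transcripts were matched to GENCODE M21 on GRCm38 (115560 of 116945 with version, 385 by identifier; the 1000 unmatched held 0.352% to 0.425% of neurosphere reads and were left out). Their expected counts were summed to 35449 genes and rounded. Without molecular identifiers, counting errors and floors cover counting error only.

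The 6 neurosphere libraries were fitted in R 4.3.3 with edgeR 4.0.16, using TMM, filterByExpr, the robust quasi-likelihood test and Benjamini-Hochberg adjustment with a threshold of 0.05. An adjusted p without another tool named is from that fit. The interaction used all 14 libraries. Exact two-sided permutation tests over lines were used for H3f3a, H3f3b and sums. Chromosome medians used log2 CPM with a prior count of 2.

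The named genes are H3f3a, H3f3b, the 12 protein-coding genes each way with the smallest p whose higher group averaged 5 CPM or more, up to 4 members of each list with the smallest p and its highest member, genes called under an alternative, and the 8 interaction genes with the smallest p. Others (among them Sox2, Hira, Daxx, Col1a2, Mki67, the Hox and Y-linked genes, Hist1h4i, Hist2h3c1, Hist1h2ap, Hist1h1b, H2afv, Pcdh15, Pagr1a and Gm42742) were chosen after their values were seen. One gene, with the alternative that rested on it, is not reported here. The members and the gene lists were chosen with earlier results of these data known, so counts over lists describe and do not test. Libraries differed beyond sampling noise (chi-square per degree of freedom of at least 8.64 in each pair), so each was counted as 1 sample. The code was tested on simulated data. Alternatives covered DESeq2 1.42.0, RLE factors, other filters, limma 3.58.1 voom with sample weights, a replicate block, all libraries in 1 fit and each library left out. Coding sequences came from GENCODE M21 transcripts and promoter windows from RefSeq (GRCm38.p6; 4 of 5 histone genes matched).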

Additional observations from a re-analysis of the deposited data

How the results depend on the processing

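H3f3a was the 1 gene called under RLE factors, the stricter filter, mitochondrial genes left out, voom, all 14 libraries in 1 fit, each covariate added after the data were seen (G2 and M phase mean, Ddx3y) and the removal of chromosome medians, with log2 differences from -5.66 to -5.31. The count of called genes was 7 by DESeq2 and 2 with no filter. Leaving out 1 line it ran from 0 (without WT line 2 or KO line 1) to 2 (without WT line 1, H3f3a and Gm15500), and the log2 difference of H3f3a from -5.66 to -5.05. The interaction gave 0 calls by edgeR and voom under each setting and 3 by DESeq2. Raising the adjusted p to 0.1 left both counts as they were. Of 228 list medians with 1 line left out 20 moved by more than the spread between lines, and of 417 under the other alternatives 5 did. The cause was not tested. None of the 56 genes recomputed under each alternative changed sign, but with 1 line left out 22 of them moved by over 1.5-fold.

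Same-numbered WT and KO lines had correlations of 0.13, -0.11 and 0.22 of their deviations from the group means, so the numbers were not taken as pairs. With a replicate block 1 gene was called, H3f3a (log2 -5.46), and 253 had an unadjusted p below 0.05. DESeq2, voom, the block, the covariates and the removal of chromosome medians give the sum of H3f3a and H3f3b no value of its own. Depth limits the low genes most.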
